A study of Mus musculus with 26 samples.

Results

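*Cd44* and its splice isoforms were followed through tumour development in the mouse colon, in animals treated with azoxymethane (AOM) and dextran sulfate sodium (DSS) and fed a standard or a GW3965 diet. The members were every transcript that the GENCODE vM21 annotation of GRCm38 assigns to *Cd44* (ENSMUSG00000005087.17, chr2:102811141-102901665, minus strand), whatever its level. These were 9 of the 119414 transcripts in the deposited tables, from 1 of 35975 genes. Of the 9, 7 held at least 1 exon of the variable region (the variant class), 1 spanned that region without any exon in it (the standard class), and 1 retained-intron transcript ended before it and was placed in neither class.

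The data were 26 bulk RNA-seq libraries of distal colon, quantified by the authors with kallisto as estimated counts and TPM (scaled for transcript length and library size), with 18195345 to 41522204 counts per library. All mice were wild-type C57BL/6J males, about 10 weeks old at the start, and received standard diet or diet with GW3965, an agonist of the liver X receptors (LXR). Mice sampled at days 22, 43 and 70 had been injected with the carcinogen AOM at 10 mg/kg on the first day of the diet and then drank DSS, which injures the colonic epithelium, in cycles of 7 days. Day 0 mice had eaten their diet for 22 or 43 days and had received neither AOM nor DSS. Each diet was represented by 4 libraries at day 0 and by 3 at each of days 22, 43 and 70. The paper's methods place the biopsies of the AOM-DSS model at tumour areas of the distal colon. It describes no visible tumours at day 22, tumours almost only on standard diet at day 43, and tumours on both diets, unequally, at day 70. The tumour content of the libraries was not measured here, so it cannot be told apart from day or diet.

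Several features limit these groups. By the labels, each diet came from 1 cage at days 22 and 43, the same cage on both days, and from another at day 0, while the 6 libraries of day 70 came from 6 further cages. Diet and cage cannot be told apart at days 0, 22 and 43, every comparison with day 0 is also one between cages, and days 22 and 43 do not come from independent cages. RNA integrity numbers were 9.1 to 10 at days 0, 22 and 70, but at day 43 they were 2.6, 8.4 and 7.8 on standard diet and 8, 6.8 and 9.3 on GW3965 diet. The study's documents describe both separate mice and pooled replicates, so the number of animals behind a library is uncertain. One GW3965 library of day 0 (replicate 43-2) carried conflicting diet labels and was placed by its title. Its summed level of the LXR target genes *Abca1*, *Abcg1*, *Srebf1*, *Abcg5* and *Abcg8* was 914 CPM (counts scaled to library size), beside 903 to 946 CPM in the other GW3965 libraries and 155 to 186 CPM in the standard-diet libraries of that day. The 10 epithelial markers, including *Epcam* and *Krt8*, were detected in all 26 libraries, with sums of 3459 to 22731 CPM.

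CD44 is a membrane glycoprotein and the main cell-surface receptor for hyaluronan, a long polysaccharide of the extracellular matrix. Its pre-mRNA holds a block of alternative exons, named v1 to v10, whose inclusion lengthens the part of the protein that lies between the hyaluronan-binding domain and the membrane. The standard form is the usual one on leukocytes and stromal cells, whereas forms with variant exons are typical of epithelial cells, including those of the intestinal crypt base and of stratified squamous epithelium. Forms with v6 are known to serve as co-receptors of the growth factor receptor MET, forms with v8 to v10 are known to stabilise the cystine transporter subunit encoded by *Slc7a11*, and *Cd44* itself is known as a target gene of Wnt signalling.

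In the annotation, 5 constitutive exons precede the variable region and 4 follow it, and the 10 variant exons measure at least 90 bases, each a multiple of 3, so that each can be included without changing the reading frame. The exon joined to the last upstream constitutive exon (chr2:102853015-102853236) separates the 8 coding transcripts from each other, and the spliced junctions are shown because they are where these transcripts differ. Reads over the junctions were not counted here, and the values are kallisto estimates over whole transcripts. The runs are on the minus strand of GRCm38. Each transcript is named here by its variant exons, with s for standard and Δ7 for the lack of v7. The last 20 bases of the upstream exon are in lower case, and the capitals mark the first 20 bases of the exon joined to it.
Cd44s: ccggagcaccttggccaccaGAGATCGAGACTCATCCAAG
Cd44v1–10: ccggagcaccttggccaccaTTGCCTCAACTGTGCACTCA
Cd44v4–10: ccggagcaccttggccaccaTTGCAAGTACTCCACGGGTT
Cd44v5–10Δ7: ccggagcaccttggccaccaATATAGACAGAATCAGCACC
Cd44v6–10: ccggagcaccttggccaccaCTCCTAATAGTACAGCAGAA
Cd44v8–10: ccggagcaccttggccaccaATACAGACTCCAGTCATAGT
Cd44v9–10: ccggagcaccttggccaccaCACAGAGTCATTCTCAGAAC
Cd44v10: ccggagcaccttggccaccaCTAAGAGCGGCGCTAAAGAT

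The transcripts also differ at their 3′ ends, and this bears on every comparison of the classes. Cd44v1–10 and Cd44v5–10Δ7 end 1406 bases beyond the standard transcript Cd44s, and no other *Cd44* transcript in the annotation reaches so far. The deposited kallisto output gives transcript lengths of 5614 bases for Cd44v1–10, 5045 for Cd44v5–10Δ7 and 2848 for Cd44s. These lengths differ as the annotated exons do, with the 1406 bases included. Reads from this stretch could therefore be assigned only to variant transcripts, whatever their variant exons. The version of the index is not given in the sources used here, and the part of these reads in the shares was not tested. Cd44v6–10 and Cd44s end within 17 bases of each other, and Cd44v9–10, Cd44v8–10, Cd44v10 and Cd44v4–10 end 2979 to 2992 bases before the longest. The shares are therefore given for all classed transcripts, without Cd44v1–10 and Cd44v5–10Δ7, and for Cd44v6–10 against Cd44s, which differ by exons v6 to v10 and hardly at their 3′ ends. The 2 narrower shares, and the variant class without the 2 long transcripts, were chosen after seeing the data.

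**Figure D1:**
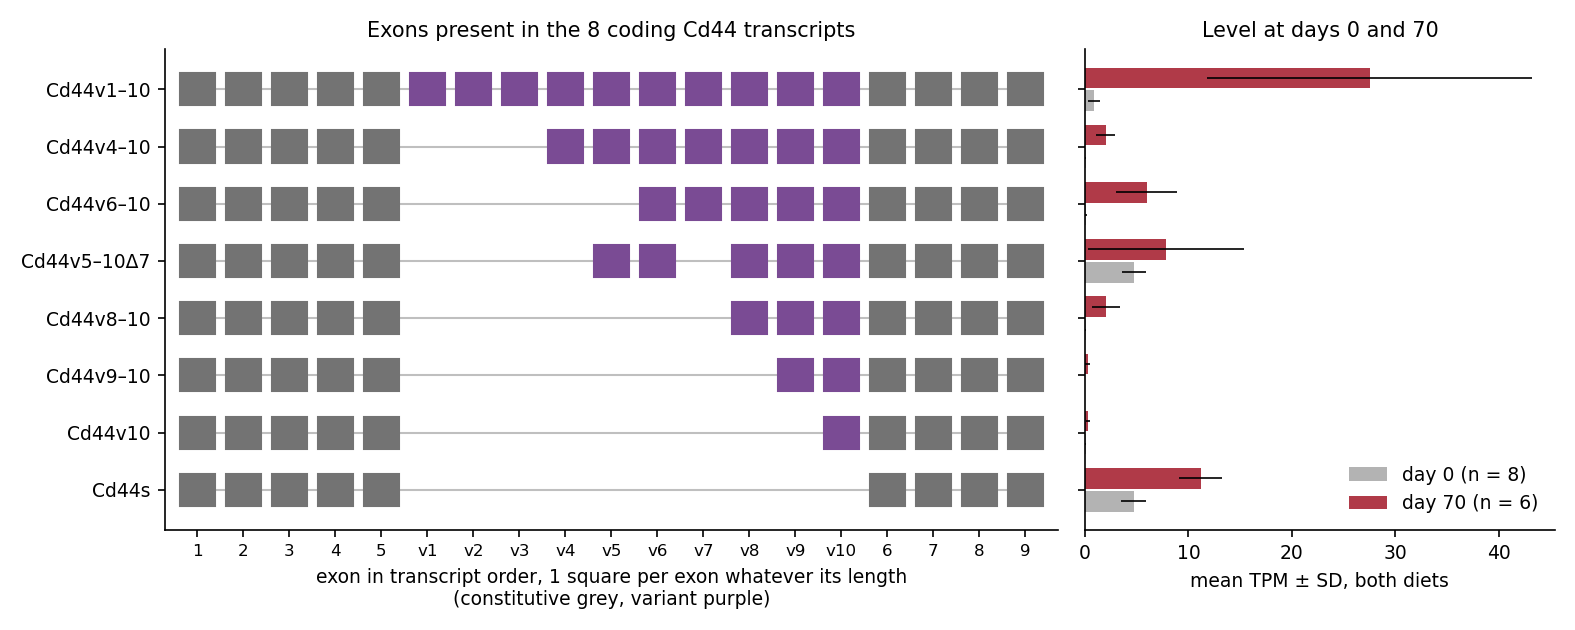
Exons present in the 8 coding *Cd44* transcripts (left, 1 square per exon, constitutive grey and variant purple) and the mean TPM of each at days 0 (n = 8) and 70 (n = 6) over both diets, with SD bars (right). Cd44v1–10, with all 10 variant exons, has the longest bar at day 70, and Cd44v6–10, Cd44v8–10 and Cd44v4–10 are near 0 at day 0.

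The first comparison asked how the level of the gene as a whole changed during tumour development. At day 0, *Cd44* stood at 8.86, 10.7, 12.5 and 12.2 TPM on standard diet and at 8.14, 12.6, 11.5 and 9.31 TPM on GW3965 diet. At day 22, after the first DSS cycle, it stood at 14.3, 21.3 and 29.2 TPM on standard diet and at 16.3, 16.5 and 11.4 TPM on GW3965 diet. All standard-diet values of day 22 lay above those of day 0, whereas 1 GW3965 value of day 22 lay within the range of day 0. This overlap held for TPM only, since on the CPM scale (without transcript length) the GW3965 libraries stood at 65.3 to 72.0 CPM at day 22 and at 27.6 to 38.1 CPM at day 0. At day 43 the gene stood at 26.4, 20.1 and 15.2 TPM on standard diet and at 22.2, 10.2 and 23.7 TPM on GW3965 diet. At day 70 it stood at 61.5, 52.1 and 46.7 TPM on standard diet and at 68.9, 27.4 and 90.4 TPM on GW3965 diet. All but 1 of the 6 libraries of day 70 lay above every library of the earlier days, and the exception, GW3965 replicate 2 at 27.4 TPM, lay below the highest library of day 22.

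The group means gave the order GW3965 day 0 (10.4 ± 2.03 TPM, SD, n = 4), standard day 0 (11.1 ± 1.67, n = 4), GW3965 day 22 (14.7 ± 2.84, n = 3), GW3965 day 43 (18.7 ± 7.40, n = 3), standard day 43 (20.6 ± 5.63, n = 3), standard day 22 (21.6 ± 7.48, n = 3), standard day 70 (53.4 ± 7.49, n = 3) and GW3965 day 70 (62.2 ± 32.0, n = 3). Every pair of neighbours in this order overlapped except standard day 22 and standard day 70. On the CPM scale, which leaves transcript length out, standard day 43 (171 ± 44.7 CPM, n = 3) stood beside standard day 70 (171 ± 17.1 CPM, n = 3), so the rank of day 43 depended on the scale. In 5 of the 6 libraries of day 43 most *Cd44* counts lay on the long transcript Cd44v5–10Δ7, up to 6877 of 7134 in standard replicate 1 (RNA integrity number 2.6), while in GW3965 replicate 3 it held 940 of 2347 and Cd44v1–10 held 998.

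Over both diets, *Cd44* rose at day 22 by 1.22 on the log2 scale (SE 0.248) and at day 70 by 2.53 (SE 0.231), and both days were compared with the same 8 libraries of day 0. The adjusted p was 0.00146 at day 22 and 2.38e-07 at day 70 (edgeR quasi-likelihood test, Benjamini-Hochberg (BH) adjustment over 17063 genes). At day 22, 20% of all genes tested passed the threshold of 0.05 (13.3% higher and 6.64% lower), and at day 70, 43.4% did. By p, *Cd44* ranked 41 of 17063 genes at day 70. The day 70 change was 2.33 (SE 0.321, adjusted p = 7.39e-05, edgeR) on standard diet and 2.73 (SE 0.332, adjusted p = 3.70e-05) on GW3965 diet, and the difference between them was 0.40 (SE 0.456, adjusted p = 0.754). On standard diet 33.2% of genes passed at day 70, and on GW3965 diet 21.8% did (14.4% higher and 7.43% lower). At day 22 *Cd44* rose by 1.34 on standard diet (SE 0.329, adjusted p = 0.0160, edgeR), where 7.74% of genes passed (6.19% higher and 1.55% lower). On GW3965 diet it rose by 1.1 (SE 0.339, adjusted p = 0.0387), where 12.5% passed (9.09% higher and 3.46% lower). In bulk tissue, more cells of a type and more RNA per cell cannot be told apart, and this holds for each of these changes.

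At day 43 the change from day 0 was 2.08 on the log2 scale (SE 0.556) and did not pass the test (edgeR, adjusted p = 0.0920), in a comparison in which 0.598% of genes passed. The fit held the share of ribosomal protein genes in each library, in percent, as an additive term, whereas the study's own model used the percentage of ribosomal RNA with its interactions with diet and time. The share used here was 10.0 to 18.6 at day 43 and 3.96 to 10.7 on the other days. The term and the time point could hardly be told apart for this reason. Without the term the change was 2.12 with an adjusted p of 7.57e-08 (edgeR), where 11009 of 17063 genes passed, so this call is not particular to *Cd44*. A DESeq2 fit with the term gave 2.04 with an adjusted p of 0.0200, where 471 genes passed. Over all 6 alternative fits the change ranged from 1.45 to 2.12. Over the 14 fits that each left out 1 library it ranged from 1.63 to 2.20, and none passed (edgeR adjusted p = 0.0589 to 0.495). On GW3965 diet alone the change was 1.87 (SE 0.508, edgeR adjusted p = 0.0795), where 0.932% of genes passed (0.891% higher and 0.041% lower). On standard diet alone it was 2.28 (SE 0.697, edgeR adjusted p = 0.279), where 0 genes passed in edgeR (1368 at an unadjusted p under 0.05) and 196 in DESeq2. From day 22 to day 43 the change was 0.86 (SE 0.470, edgeR adjusted p = 1, with 0.0996% of genes passing, all of them higher), and from day 43 to day 70 it was 0.46 (SE 0.605, adjusted p = 0.915). Without the ribosomal term the change from day 22 to day 43 was 0.89 (adjusted p = 0.00582, edgeR, with 6074 genes passing).

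**Figure D2:**
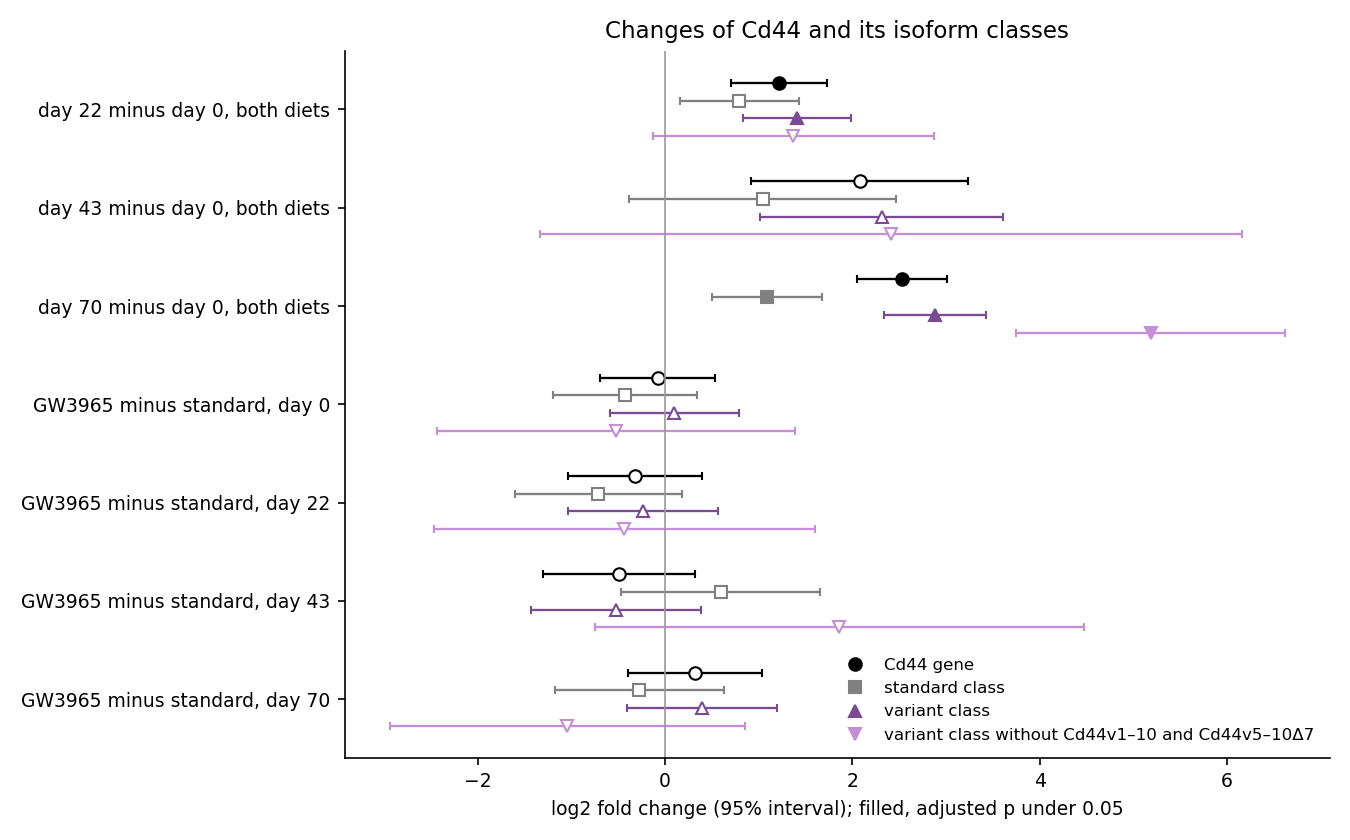
Log2 fold changes (x axis, with 95% intervals) of the *Cd44* gene, its standard class, its variant class and the variant class without Cd44v1–10 and Cd44v5–10Δ7, for each day against day 0 over both diets and for GW3965 against standard diet on each day. Filled symbols passed the edgeR test, and at day 70 the standard class (1.09) lies left of the variant class (2.88) and of the variant class without the long 3′ end (5.19).

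The next question was which transcripts carried these changes. The standard transcript Cd44s stood at 4.06, 4.70, 6.17 and 6.52 TPM on standard diet and at 2.90, 3.70, 5.28 and 4.24 TPM on GW3965 diet at day 0. At day 22 it stood at 5.12, 6.23 and 10.1 TPM on standard diet and at 6.10, 3.65 and 1.74 TPM on GW3965 diet. The 2 days overlapped on each diet. At day 43 Cd44s stood at 0.281, 1.54 and 1.11 TPM on standard diet and at 2.92, 0.798 and 5.84 TPM on GW3965 diet. At day 70 it stood at 12.7, 13.2 and 7.44 TPM on standard diet and at 10.8, 10.9 and 12.1 TPM on GW3965 diet. The 3 standard-diet values of day 43 were below all others except GW3965 replicate 2 of the same day, and every value of day 70 lay above every value of day 0.

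Cd44v6–10, the variant transcript with nearly the same 3′ end as Cd44s, was close to absent before day 70. It stood at 0.127, 0.105, 0.209 and 0.213 TPM on standard diet and at 0, 0.0859, 0.285 and 0 TPM on GW3965 diet at day 0. Across days 22 and 43 it ranged from 0 to 0.696 TPM in 12 libraries. At day 70 it stood at 10.2, 5.12 and 7.42 TPM on standard diet and at 4.46, 1.60 and 7.00 TPM on GW3965 diet. All 6 libraries of day 70 lay above all 20 libraries of the earlier days, the lowest being GW3965 replicate 2.

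Cd44v1–10, with all variant exons and the long 3′ end, stood at 1.15, 0, 1.03 and 1.52 TPM on standard diet and at 0.766, 1.58, 0.694 and 0.112 TPM on GW3965 diet at day 0. At day 22 it stood at 1.58, 1.87 and 3.06 TPM on standard diet and at 1.86, 0.640 and 0.963 TPM on GW3965 diet. At day 43 it stood at 0.714, 1.64 and 1.21 TPM on standard diet and at 1.93, 0.516 and 7.98 TPM on GW3965 diet. The last of these, GW3965 replicate 3, was above every other library before day 70. At day 70 Cd44v1–10 stood at 22.8, 20.9 and 25.2 TPM on standard diet and at 47.9, 5.18 and 43.4 TPM on GW3965 diet, where replicate 2 was again the lowest and fell below GW3965 replicate 3 of day 43.

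Cd44v5–10Δ7, with v5, v6 and v8 to v10 and the long 3′ end, followed another course. It stood at 3.28, 5.66, 4.83 and 3.30 TPM on standard diet and at 4.27, 6.73, 5.09 and 4.86 TPM on GW3965 diet at day 0. At day 22 it stood at 7.37, 12.6 and 14.8 TPM on standard diet and at 8.00, 11.4 and 8.62 TPM on GW3965 diet, all above day 0. At day 43 it stood at 25.4, 16.6 and 12.6 TPM on standard diet and at 16.3, 8.66 and 8.40 TPM on GW3965 diet, again above day 0. At day 70 it spread from 0.659 to 21.4 TPM, with 8.53, 7.08 and 0.659 TPM on standard diet and 0.887, 8.45 and 21.4 TPM on GW3965 diet, and overlapped day 0. Standard replicate 3 and GW3965 replicate 1, the libraries with least Cd44v5–10Δ7 at day 70, had 25.2 and 47.9 TPM of Cd44v1–10. The 2 transcripts share their 3′ end and most exons, so the split between them is uncertain. No measure of that uncertainty was deposited.

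**Figure D3:**
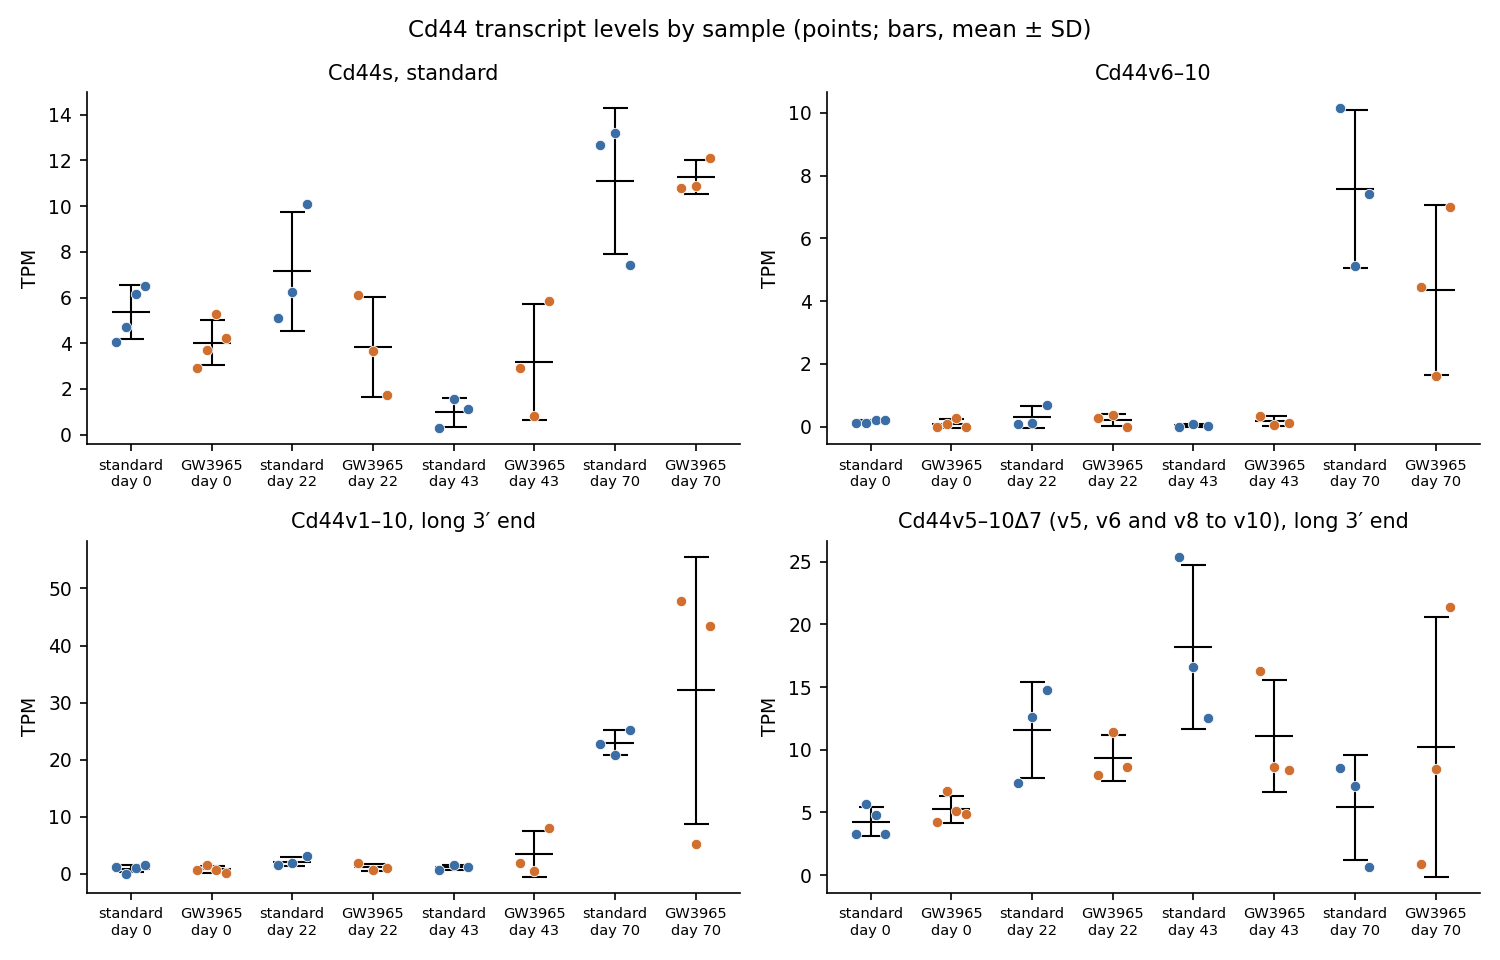
TPM (y axis) of 4 *Cd44* transcripts in each of the 26 libraries (points, blue for standard and orange for GW3965 diet) in the 8 diet-by-day groups, with mean and SD as bars. Cd44v6–10 is at most 0.696 TPM before day 70 and at least 1.60 TPM at day 70, while Cd44v5–10Δ7 is highest at day 43 on standard diet.

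The remaining transcripts were minor. Cd44v8–10 was at most 0.300 TPM before day 70 and stood at 2.37, 3.85 and 2.65 TPM on standard diet and at 0.826, 0.187 and 2.26 TPM on GW3965 diet at day 70. Cd44v4–10 was at most 0.318 TPM before day 70 and stood at 3.15, 1.40 and 1.87 TPM on standard diet and at 2.12, 0.528 and 2.84 TPM on GW3965 diet at day 70. Cd44v4–10 did not overlap the earlier days, and Cd44v8–10 overlapped them through GW3965 replicate 2 alone. Cd44v9–10 and Cd44v10 did not exceed 0.721 TPM in any library, and the retained-intron transcript did not exceed 1.40 TPM.

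The filter on low counts left 7 of the 9 transcripts for testing, without Cd44v9–10 and Cd44v10. At day 70, 5 of the 7 rose in the edgeR fit over 50783 transcripts, of which 14.1% passed in either direction and 7.38% rose. The changes on the log2 scale were 5.24 for Cd44v6–10 (SE 0.913, adjusted p = 0.000622), 5.06 for Cd44v4–10 (SE 1.15, adjusted p = 0.00508), 4.80 for Cd44v1–10 (SE 0.689, adjusted p = 9.96e-05) and 4.75 for Cd44v8–10 (SE 1.05, adjusted p = 0.00618). That of the standard transcript Cd44s was 1.02 (SE 0.287, edgeR adjusted p = 0.0202). Cd44v5–10Δ7 changed by 0.63 (SE 0.499, adjusted p = 0.476) and the retained-intron transcript by 2.17 (SE 0.805, adjusted p = 0.0811), and neither passed. At day 22 and day 43 none of the 7 passed, beside 7.6% and 0.065% of all transcripts. Within diets, Cd44v1–10 and Cd44v6–10 passed the edgeR test on GW3965 diet (adjusted p = 0.00670 and 0.0322) and on standard diet (adjusted p = 0.00657 and 0.0138), beside 4.12% of all transcripts on GW3965 diet (2.47% higher) and 6.64% on standard diet (3.13% higher). Cd44s did not pass within either diet (0.95, adjusted p = 0.179 on standard diet; 1.09, adjusted p = 0.157 on GW3965 diet). Cd44v8–10 and Cd44v4–10 passed on standard diet only (adjusted p = 0.0307 and 0.0421), and the difference between diets passed for neither (adjusted p = 0.949 and 0.998).

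As classes, the variant transcripts together rose at day 70 by 2.88 on the log2 scale (SE 0.261, edgeR adjusted p = 2.20e-07) and the standard transcript by 1.09 (SE 0.283, adjusted p = 0.00406), against the same day 0 libraries. Without Cd44v1–10 and Cd44v5–10Δ7 the variant class rose by 5.19 (SE 0.689, adjusted p = 9.71e-06), from means of 0.609 and 0.390 CPM at day 0 to 26.4 and 14.9 CPM at day 70 on standard and GW3965 diet. Within diets, this class rose by 5.45 (SE 0.969, adjusted p = 0.000452) on standard diet and by 4.93 (SE 0.986, adjusted p = 0.00172) on GW3965 diet. With 1 library left out, the change on GW3965 diet was 4.08 to 5.74 and passed in 7 of 7 fits. The standard class changed by 1.01 (SE 0.393, edgeR adjusted p = 0.0529) on standard diet and by 1.16 (SE 0.409, adjusted p = 0.0463) on GW3965 diet, although its only transcript, Cd44s, did not pass there among all transcripts. The call of the class was lost with DESeq2 size factors, without the filter or with a replicate block (adjusted p = 0.0542, 0.0797 and 0.116), and when any of GW3965 day 0 replicates 22-1, 22-2 and 43-2 or GW3965 day 70 replicates 1, 2 and 3 was left out, with changes of 0.97 to 1.35 and adjusted p of 0.0404 to 0.176 over the 7 fits.

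At day 22 the variant class rose by 1.41 on the log2 scale (SE 0.279, edgeR adjusted p = 0.00121). The standard class changed by 0.79 (SE 0.305, adjusted p = 0.0732), and by 0.96 (adjusted p = 0.0372) when standard day 22 replicate 1 was left out. The variant class without the long 3′ end changed by 1.37 (SE 0.720, adjusted p = 0.198). At day 43 the changes were 2.31 for the variant class (SE 0.623, adjusted p = 0.0944) and 1.04 for the standard class (SE 0.683, adjusted p = 0.654), and neither passed. Over the 6 alternative fits the variant class changed by 1.63 to 2.56. Without the ribosomal term the standard class stood lower at day 43 than at day 0, by -0.48 (edgeR adjusted p = 0.186), and the variant class higher by 2.56 (adjusted p = 3.97e-08), so the direction of the standard class at day 43 depended on that term.

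The share of variant transcripts in the TPM of all classed transcripts was the planned measure of the balance between the classes. At day 0 it was 53.9, 55.6, 49.6 and 45.3% on standard diet and 64.3, 69.9, 54.1 and 53.9% on GW3965 diet. At day 22 it was 63.8, 70.4 and 65.2% on standard diet and 62.4, 77.7 and 84.7% on GW3965 diet. At day 43 it was 98.9, 92.3 and 92.6% on standard diet and 86.7, 92.1 and 74.8% on GW3965 diet. All 6 libraries of day 43 lay above all 8 of day 0. At day 70 the share was 79.2, 74.5 and 83.7% on standard diet and 84.0, 59.8 and 86.4% on GW3965 diet, and GW3965 replicate 2 lay within the range of day 0.

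Over both diets this share was higher than at day 0 by 14.9 percentage points at day 22, by 33.7 at day 43 and by 22.1 at day 70, and the 3 differences share the day 0 libraries. In a two-sided exact permutation test within diets, p was 0.0049, 0.00163 and 0.0049, where 0.00163 is the smallest p this design allows, and each adjusted p was 0.0245 (BH over 15 contrasts). With 1 library left out in turn, the call was kept in 14 of 14 fits at day 43 but in 7 of 14 at day 22 (adjusted p up to 0.075) and in 7 of 14 at day 70 (up to 0.0571). Both were lost without GW3965 day 0 replicate 43-1 or 43-2 or any standard library of the later day, that of day 22 also without GW3965 day 22 replicate 2 or 3, and that of day 70 without GW3965 day 70 replicate 1 or 3. Leaving out together the 3 libraries with an RNA integrity number under 8, all of day 43, gave a difference of 30.7 points for that day. The call was then not reached, but with 1 standard and 2 GW3965 libraries of the day left the test was too small to reach it. The number of libraries that went with the direction differed, since 6 of 6 lay above the highest day 0 value at day 43, 3 of 6 at day 22 and 5 of 6 at day 70. From day 22 to day 43 the difference was 18.9 points (adjusted p = 0.075, exact permutation) and from day 43 to day 70 it was -11.6 points (adjusted p = 0.0952, exact permutation).

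Cd44v1–10 and Cd44v5–10Δ7 held 47.3% of *Cd44* TPM on standard diet and 57.9% on GW3965 diet at day 0, 63.9% and 72.5% at day 22, 93.5% and 80.5% at day 43, and 53.3% and 64.0% at day 70. Their part and the planned share thus had the same order from day 0 to day 43, while from day 22 to day 70 their part was lower on both diets and the mean planned share higher (66.5 and 79.2% on standard diet, 74.9 and 76.7% on GW3965 diet). Without the 2 transcripts, the variant share at day 0 was 7.14, 4.54, 3.28 and 8.30% on standard diet and 6.51, 6.39, 7.71 and 0% on GW3965 diet. At day 22 it was 1.30, 5.83 and 9.32% on standard diet and 4.23, 14.7 and 2.81% on GW3965 diet. The 2 days overlapped on each diet. At day 43 it was 0, 5.20 and 9.59% on standard diet and 21.6, 13.6 and 13.9% on GW3965 diet, and the 2 diets did not overlap. At day 70 it was 57.4, 44.7 and 62.5% on standard diet and 42.4, 19 and 50.5% on GW3965 diet, above every library of days 0 and 22 and, save for GW3965 replicate 2, above every library of day 43.

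The narrowest comparison, Cd44v6–10 as a share of Cd44v6–10 and Cd44s, also had its highest values at day 70, but did not set the GW3965 libraries of day 43 apart. At day 0 it was 3.02, 2.19, 3.28 and 3.17% on standard diet and 0, 2.27, 5.12 and 0% on GW3965 diet. At day 22 it was 1.30, 1.89 and 6.46% on standard diet and 4.23, 9.23 and 0% on GW3965 diet, and at day 43 it was 0, 4.44 and 2.94% and 10.7, 5.19 and 2.07%. All 20 libraries of these days overlapped as a single low range, with 41.0 to 519 estimated counts behind each value. A value of 0 allowed for a share of up to 2.24% and 1.72% in the GW3965 libraries of day 0, 2.13% at day 22 and 7.31% in standard replicate 1 of day 43 (3 counts of the total, counting error only). At day 70 the share was 44.4, 28 and 49.9% on standard diet and 29.2, 12.8 and 36.6% on GW3965 diet. All 6 libraries of day 70 lay above all 20 of the earlier days, of which the highest was 10.7%.

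Against day 0, the share without the long 3′ end was higher by 40.6 percentage points at day 70 and that of Cd44v6–10 by 31.1 points, each with p = 0.00163 and an adjusted p of 0.0245 (two-sided exact permutation test, BH over 15 contrasts), the smallest the design allows. The call of the share without the long 3′ end was kept in 8 of 14 fits that each left out 1 library. It was lost (adjusted p = 0.0571, exact permutation) without any 1 of the 6 libraries of day 70. With fewer libraries the smallest possible p is larger, so these losses do not bear on the size of the difference. Over the 14 fits the difference was 37.3 to 45.2 points. At day 22 the differences were 0.884 points (adjusted p = 0.857, exact permutation) and 1.47 points (adjusted p = 0.580), and at day 43 they were 5.16 points (adjusted p = 0.196) and 1.84 points (adjusted p = 0.580). Over both diets, the increase of the planned share at days 22 and 43 thus did not pass with either narrower share. On GW3965 diet alone, the share without the long 3′ end was higher at day 43 than at day 0 by 11.2 points with no overlap (p = 0.0571, the smallest the design allows, adjusted p = 0.171, exact permutation), while on standard diet the difference was -0.884 points with overlap (p = 0.743). From day 43 to day 70 the share of Cd44v6–10 was higher by 29.3 points (p = 0.005, adjusted p = 0.0375, exact permutation), and that without the long 3′ end by 35.4 points (p = 0.01, adjusted p = 0.075), whereas the planned share had the opposite sign.

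**Figure D4:**
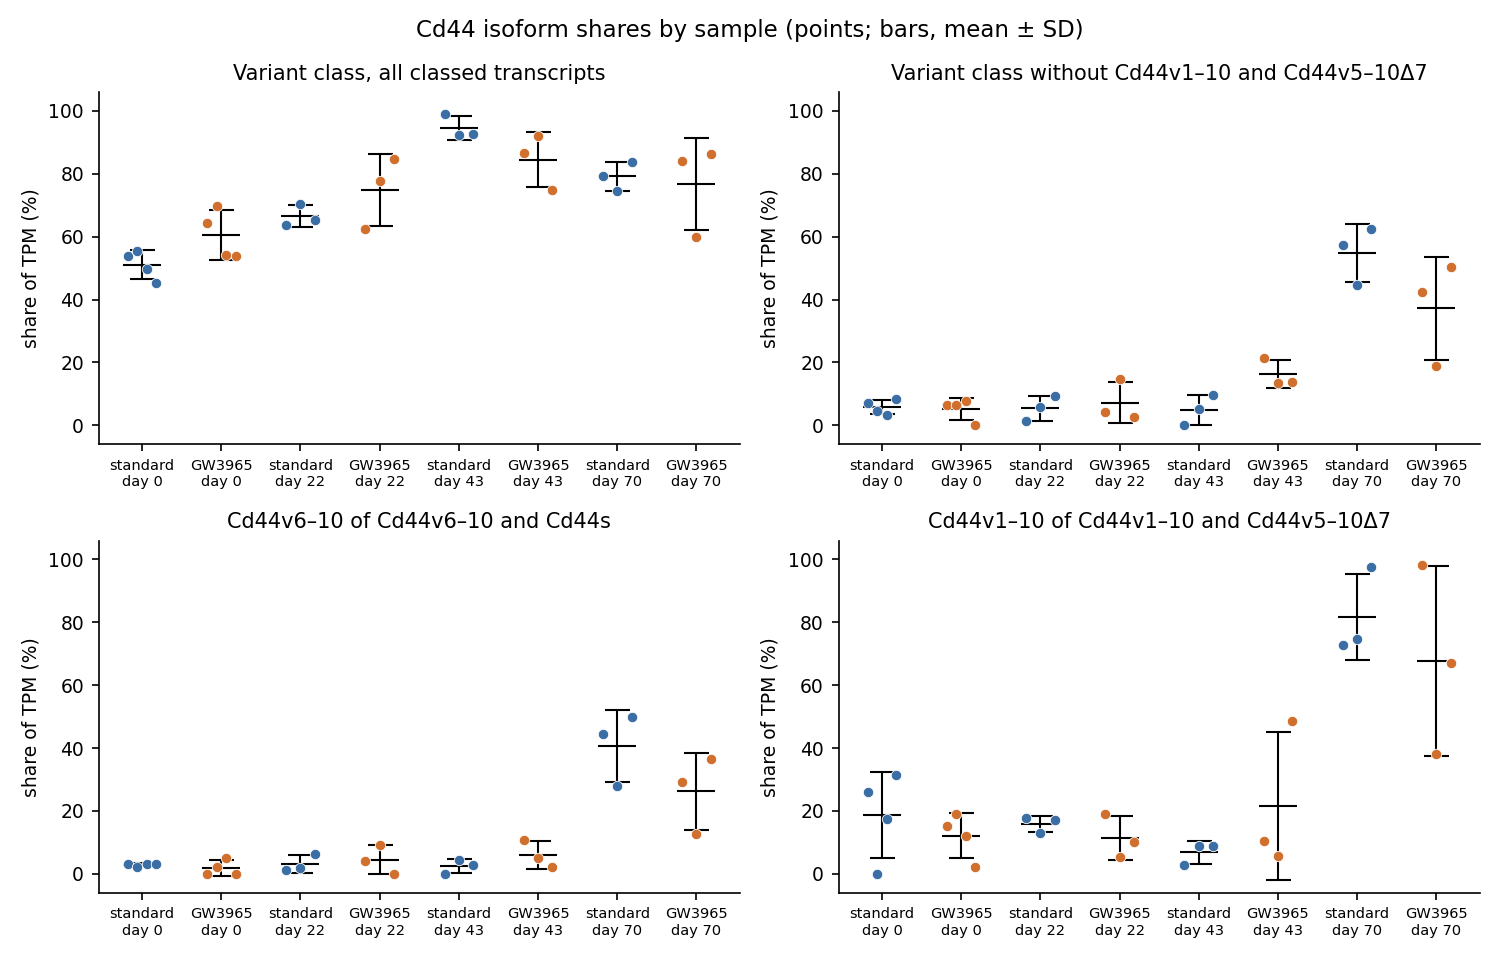
Shares of TPM (y axis, percent) in each of the 26 libraries (points, blue for standard and orange for GW3965 diet) in the 8 diet-by-day groups, with mean and SD as bars, for the variant class among all classed transcripts, the same without Cd44v1–10 and Cd44v5–10Δ7, Cd44v6–10 of Cd44v6–10 and Cd44s, and Cd44v1–10 of Cd44v1–10 and Cd44v5–10Δ7. The first share is highest at day 43 (74.8 to 98.9%), and the other 3 have their highest group means at day 70.

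Within the long transcripts, the share of Cd44v1–10 in Cd44v1–10 and Cd44v5–10Δ7 marks the inclusion of v1 to v4 and v7. Its means at day 0 were 18.8% on standard diet and 12.1% on GW3965 diet, and those at day 22 were 15.9% and 11.4%. At day 43 it was 2.73, 8.99 and 8.76% on standard diet and 10.6, 5.62 and 48.7% on GW3965 diet. GW3965 replicate 3 of day 43 stood apart from the other libraries before day 70, which were at most 31.5%. At day 70 it was 72.8, 74.7 and 97.5% on standard diet and 98.2, 38 and 67% on GW3965 diet, higher than day 0 by 59.2 points (exact permutation p = 0.00163, adjusted p = 0.0245) and with no overlap.

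Counted by exon, every transcript summed by whether it holds the exon, v1 to v3 were in 44.3% of classed TPM on standard diet and in 46.2% on GW3965 diet at day 70, while the group means of the earlier days were at most 16.1%. That highest mean, of GW3965 day 43, rested on replicate 3 (34.4%, beside 8.80 and 5.11% in replicates 1 and 2), which lay above GW3965 replicate 2 of day 70 (19.1%), so the 2 days overlapped. Among transcripts without the long 3′ end, each one with a variant exon also holds all later ones up to v10, so inclusion can only rise towards v10 whatever the data. Inclusion at day 70 was 8.62% for v4, 39.6% for v6, 52.1% for v8, 53.1% for v9 and 54.9% for v10 on standard diet. On GW3965 diet it was 8.95, 30.4, 35.4, 36.4 and 37.3% for the same exons. Exon v6 was present in 27.3 to 46.8% of this TPM in the standard-diet libraries and in 15.8 to 40.3% in the GW3965 libraries, and in at most 17.9% in any earlier library.

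Whether the transcripts of the gene changed unequally was tested across 11385 genes with at least 2 tested transcripts (edgeR diffSpliceDGE, F-test, BH). At day 70 the usage of *Cd44* transcripts differed from day 0 (F = 11.2, adjusted p = 3.48e-07), in a comparison in which 6.76% of genes passed. Relative to the gene, Cd44v1–10 and Cd44v6–10 stood higher by 2.34 and 2.77 on the log2 scale, while Cd44s and Cd44v5–10Δ7 stood lower, at -1.44 and -1.84. The values of Cd44v4–10 (2.60) and Cd44v8–10 (2.28) were less certain, and that of Cd44v8–10 did not pass 0.05 even before adjustment. With the transcripts summed into classes F was 18.4 (adjusted p = 0.00543, edgeR), and without Cd44v1–10 and Cd44v5–10Δ7 it was 32.3 (adjusted p = 0.000195). Within diets the test of transcripts gave an adjusted p of 0.00178 on standard diet (1.55% of genes passing) and 0.0187 on GW3965 diet (2.6%), and the classes without the long 3′ end gave 0.0150 and 0.0325. With a replicate block both calls on GW3965 diet were lost (edgeR adjusted p = 0.141 for transcripts and 0.101 for these classes). The 2 full classes did not pass within a diet (adjusted p = 0.142 and 0.0830, edgeR), and the difference between diets did not pass in any of the 3 forms (adjusted p = 1).

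Usage did not pass at day 22 (adjusted p = 0.908 for transcripts, edgeR, with 11.4% of genes passing) or at day 43 (adjusted p = 1, with 0.36% passing). Without the ribosomal term the usage test at day 43 gave an adjusted p of 0.00108 for transcripts and 1.80e-07 for the full classes, where 59.5% of genes passed, but did not pass for the classes without the long 3′ end. From day 43 to day 70 all 3 forms passed without that term (adjusted p = 2.65e-11, 0.00414 and 0.00150, edgeR), where 52.2% of genes passed, and none with it.

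The GW3965 diet was compared with the standard diet on each day, to ask whether LXR activation went with another level or form of *Cd44*. The gene differed by -0.08 on the log2 scale at day 0 (SE 0.295), by -0.33 at day 22 (SE 0.343), by -0.49 at day 43 (SE 0.390) and by 0.32 at day 70 (SE 0.345). None passed (edgeR adjusted p = 1, 0.843, 0.752 and 0.640), and 0.0293, 0.135, 0.0293 and 1.85% of all genes did. Of these, 0.0879% were higher and 0.0469% lower on GW3965 diet at day 22, and 1.75% and 0.0938% at day 70. The 315 genes passing at day 70 became 6 to 1456 when 1 library of that day was left out. The shares of all genes given below for this comparison moved with that number. At day 70 the 95% interval of the difference was -0.40 to 1.04, and leaving out GW3965 replicate 3, the highest library at 90.4 TPM, turned it to -0.10, while leaving out replicate 2 gave 0.71. All 5 LXR targets named above were higher on GW3965 diet at days 0, 43 and 70 and 4 of the 5 at day 22, with a median difference of 2.90, 2.65, 1.75 and 2.06 on the log2 scale at days 0, 43, 70 and 22. At day 70 the calls of *Abcg5* and *Abcg8* were lost without GW3965 replicate 2 (0.93 and 1.05) or any standard replicate, and without the filter or with a replicate block.

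The shares did not pass a test between diets either. The usage test did not pass between diets on any day with the ribosomal term (lowest adjusted p = 0.396, for the classes at day 43, edgeR, where 4.1% of genes passed). Without that term it passed at day 43 for the classes (adjusted p = 0.0160) and the transcripts (0.0212), where 15.6% of genes passed, and not for the classes without the long 3′ end (0.486). The planned share differed by 9.46 percentage points at day 0 (adjusted p = 0.156, exact permutation), 8.45 at day 22 (adjusted p = 0.429), -10.1 at day 43 (adjusted p = 0.150) and -2.44 at day 70 (adjusted p = 1), with 0.0286 as the smallest p for 4 against 4 libraries and 0.1 for 3 against 3. Without the long 3′ end the difference was 11.4 points at day 43 (p = 0.1, exact permutation) and -17.6 points at day 70 (p = 0.2), and for Cd44v6–10 it was -14.6 points at day 70 (p = 0.3). Leaving out GW3965 day 70 replicate 2 turned the planned difference of day 70 to 6.04 points. At day 43 the 2 shares differed in sign, the first being lower and the other higher on GW3965 diet, each with no overlap between the diets. With 3 libraries per diet, none of these differences could have reached 0.05.

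Markers of stratified squamous epithelium, which lines the anal canal and not the colon, rose at days 43 and 70. Of the 10 markers (*Krt5*, *Krt14*, *Krt13*, *Krt4*, *Krt6a*, *Trp63*, *Dsg3*, *Krtdap*, *Sprr3* and *Ivl*), 10 rose at day 70 in the edgeR fit, beside 24.8% of all genes. Their median change was 10.43 on the log2 scale beside 0.07 for all genes. *Krt6a*, *Sprr3* and *Ivl* were at 0 in all 8 libraries of day 0, so their folds are lower bounds, at least 9331-fold for *Krt6a* against 3 counts per library. With these 3 at their bounds the median was 9.72. At day 43, 6 of the 10 rose, beside 0.568% of all genes, and the median was 11.37 with the same 3 genes not at bounds. Over the 14 fits of day 43 that each left out 1 library, 0 to 404 genes passed. These 6 calls were therefore lost in at least 1 of those fits.

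Summed over the 10 markers, the day 0 libraries held 4.14, 3.82, 2.76 and 3.47 CPM on standard diet and 3.09, 2.68, 2.60 and 2.73 CPM on GW3965 diet. At day 22 the sums were 5.59, 16.9 and 23.7 CPM on standard diet and 5.99, 4.0 and 4.03 CPM on GW3965 diet. *Krt14* was the most abundant marker in all 6 of these, with 1.31 to 13.4 CPM, and 2 to 5 markers were at 0, among them *Sprr3* in each library. At day 43 the sums were 510, 1756 and 761 CPM on standard diet, led by *Krt13*, and 2339, 171 and 4229 CPM on GW3965 diet, led by *Krt14*. At day 70 they were 3280, 4714 and 4590 CPM on standard diet and 19068, 5.08 and 13484 CPM on GW3965 diet. All 10 markers were detected in the 5 libraries with high sums, led by *Krt13* or *Krt14* with 791 to 4966 CPM. GW3965 replicate 2 stood apart, with *Sprr3* and *Ivl* at 0 and *Krt14*, its most abundant marker, at 1.84 CPM.

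This replicate carried almost none of these markers and had the lowest level of Cd44v6–10 at day 70 (1.60 TPM) and the lowest share (12.8%). Both values were still above all 20 libraries of the earlier days, which reached 0.696 TPM and 10.7%. GW3965 replicates 1 and 3 of day 43 held 2339 and 4229 CPM of squamous markers, the latter close to the standard-diet libraries of day 70, with Cd44v6–10 at 0.350 and 0.124 TPM and shares of 10.7 and 2.07%. Cd44v1–10 gave another picture in the same libraries. In GW3965 replicate 3 of day 43 it stood at 7.98 TPM and 48.7% of the long transcripts, the highest values before day 70, and in GW3965 replicate 2 of day 70 at 5.18 TPM and 38%, the lowest of day 70. With GW3965 replicate 2 left out, the share without the long 3′ end was higher at day 70 than at day 0 by 45.2 points. The day 70 libraries then left were all high in squamous markers. Over the 14 fits that each left out 1 library, the variant class without the long 3′ end rose by 4.76 to 5.6 (edgeR adjusted p = 2.69e-06 to 5.28e-05). Each of these fits kept day 70 libraries high in these markers, so they cannot separate squamous tissue from the *Cd44* change. The part of squamous tissue in the *Cd44* result was not tested.

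**Figure D5:**
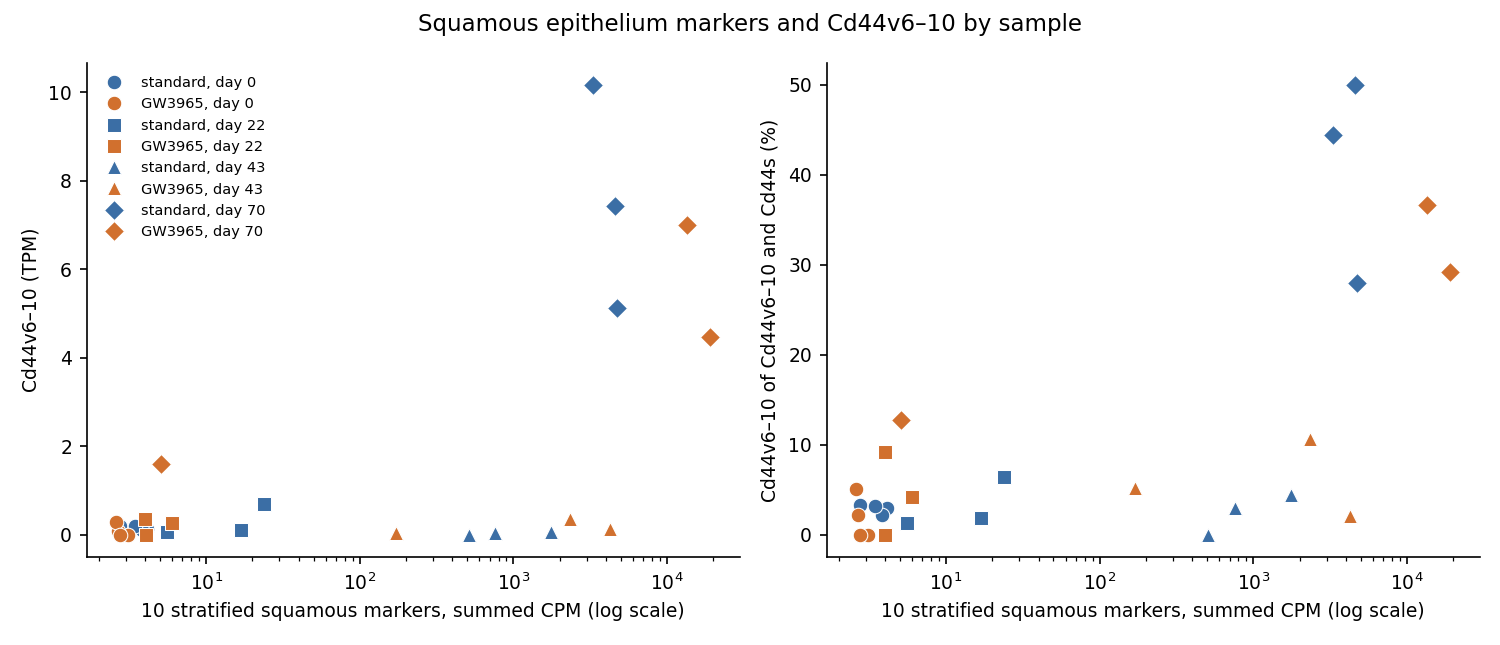
Summed CPM of the 10 stratified squamous markers (x axis, log scale) against Cd44v6–10 in TPM (left) and as a percentage of Cd44v6–10 and Cd44s (right), 1 point per library, with colour for diet and symbol for day. The library of day 70 at the left of each plot is GW3965 replicate 2, at 5.08 CPM and 12.8%, and the day 43 libraries spread to 4229 CPM without rising above 10.7%.

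Markers of other cell types also moved. All 12 leukocyte markers rose at day 22 (median 1.86, beside 13.3% of all genes rising), the day on which Cd44v5–10Δ7 first stood above day 0. Their sums were 186 to 448 CPM at day 0, 737 to 1351 CPM at day 22, 1056 to 7681 CPM at day 43 and 206 to 973 CPM at day 70, with none of the 12 at 0 in any library. At day 43 the most abundant was *S100a8*, a neutrophil gene, with 308 to 6310 CPM, and at day 22 it was *Coro1a* or *Laptm5* with 184 to 352 CPM. At day 70, 2 of the 12 rose (*Itgam* by 1.68 and *S100a8* by 8.53) and 1 fell, beside 24.8% and 18.5% of all genes. Between diets at day 70, 5 of the 12 were higher on GW3965 diet (median of the 12, 1.57), beside 1.75% of all genes. Each call was lost when any 1 of the 3 standard libraries of that day was left out, those of *Cd4* and *Itgax* also without GW3965 replicate 1 or 2, and those of *Cd79a* and *Ptprc* without GW3965 replicate 2. The sums were 206, 498 and 241 CPM on standard diet and 932, 973 and 747 CPM on GW3965 diet. Standard forms of CD44 are common on leukocytes, and the part of these cells in the result was not tested.

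All 6 smooth muscle markers fell at day 70 (median -1.92, beside 18.5% of all genes falling), from sums of 5446 to 23408 CPM at day 0 to 1580 to 7078 CPM, led by *Tagln* in 25 libraries and by *Des* in GW3965 day 70 replicate 1, with none at 0. All 5 skeletal muscle markers rose (median 6.97, beside 24.8% of all genes rising), but this rested on few libraries. GW3965 day 70 replicate 1 held 16358 CPM of them, led by *Acta1* with 5908 CPM, while standard replicates 1 to 3 held 8.99, 667 and 126 CPM and GW3965 replicates 2 and 3 held 11 and 23.4 CPM. Without GW3965 replicate 1 the calls of *Ckm* (-0.91), *Myh4* (2.90) and *Tnnt3* (1.56) were lost, and *Acta1* and *Mylpf* changed by 2.72 and 3.47 instead of 6.97 and 7.65. The call of *Myh4* was also lost without GW3965 day 0 replicate 22-2 or standard day 70 replicate 1 or 3, and that of *Ckm* without standard day 70 replicate 2 or any of 6 day 0 libraries. *Myh4* was at 0 in 7 of the 8 libraries of day 0. Of the 10 epithelial markers 2 rose (*Krt18*, lost without GW3965 day 70 replicate 3 or standard day 70 replicate 1, and *Cdx2*, called in 10 of 14 fits that each left out 1 library), of the 8 fibroblast markers 3 rose (*Col1a1* by 1.52, *Col1a2* by 0.82 and *Col3a1* by 0.82) and of the 4 endothelial markers 1 rose (*Cdh5* by 0.71, and by 0.44 without GW3965 day 70 replicate 1), with medians of 0.01, 0.07 and 0.11 and none lower, beside 24.8% of all genes rising and 18.5% falling.

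Regulators known to act on *CD44* variant exons or on epithelial splicing programmes were described as a list of 18 genes, all tested. At day 70, 10 rose and 5 fell, beside 24.8% and 18.5% of all genes, and the median change was 0.46 beside 0.07. Among proteins known to promote variant exon inclusion, *Esrp1* rose by 0.46 (SE 0.124, edgeR adjusted p = 0.00503) and *Esrp2*, its epithelial paralogue, by 0.90 (SE 0.187, adjusted p = 0.000688). *Srrm1* rose by 0.63, *Snd1* by 1.02 and *Tra2b* by 0.64, whereas *Khdrbs1*, which encodes Sam68, changed by 0.44 without passing (adjusted p = 0.132), but passed without the 3 libraries of low RNA integrity (adjusted p = 0.00779). *Tra2b* did not pass when GW3965 day 70 replicate 3 was left out (0.57, adjusted p = 0.0569).

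Of the ribonucleoproteins and serine-arginine-rich factors, *Hnrnpa1* rose by 0.77, *Hnrnpl* by 0.69, *Hnrnpm* by 0.66, *Ptbp1*, which encodes a general repressor of exon inclusion, by 0.94 (SE 0.159, edgeR adjusted p = 0.000101) and *Srsf1* by 0.46. The call of *Srsf1* was lost without GW3965 day 70 replicate 2 (0.41, adjusted p = 0.0540) or replicate 3 (0.37, adjusted p = 0.0926), and *Srsf3* changed by 0.37 without passing (adjusted p = 0.0577), but passed without GW3965 day 70 replicate 1 (0.45), standard day 0 replicate 43-2 (0.43) or the 3 libraries of low RNA integrity (0.35). The genes that fell were *Zeb1* by -1.23 and *Zeb2* by -1.07, repressors of the epithelial programme, *Celf2* by -0.88, *Mbnl1* by -0.64 and *Mbnl2* by -0.42. *Rbfox2* changed by -0.04 (adjusted p = 0.880), and its sign turned without the ribosomal term (0.05) or without GW3965 day 0 replicate 43-2, GW3965 day 70 replicate 2 or standard day 0 replicate 22-2. At day 22 none of the 18 rose and 1 fell, beside 13.3% and 6.64% of all genes, and at day 43 none passed.

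Between diets at day 70, *Celf2* was the 1 regulator that passed, higher on GW3965 diet by 1.77 on the log2 scale (SE 0.337, edgeR adjusted p = 0.0183), beside 1.75% of all genes. Its mean at day 70 was 9.38 CPM on standard diet and 34.5 CPM on GW3965 diet, beside 34.2 and 30.1 CPM at day 0. The call was lost without GW3965 replicate 1 (1.45), standard replicate 1 (1.60) or standard replicate 3 (1.76).

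CD44 binds hyaluronan, and of 16 genes of its synthesis, breakdown and binding 6 rose and 3 fell at day 70, beside 24.8% and 18.5% of all genes, with a median change of 0.44. The synthases *Has2* and *Has3* rose by 1.74 (SE 0.366, edgeR adjusted p = 0.000795) and 2.90 (SE 0.547, adjusted p = 0.000303), *Has2* by 1.04 without GW3965 day 70 replicate 3, while *Has1* stayed below 1 CPM in the day 0 and day 70 means and did not pass. *Ugdh*, whose product makes the precursor UDP-glucuronate, fell by 1.00 on the log2 scale. *Cemip* and *Cemip2*, which encode proteins that break down hyaluronan, rose by 3.61 (SE 0.357, adjusted p = 5.36e-07) and 0.56, and *Hyal2*, a hyaluronidase, rose by 0.60, and by 0.39 without GW3965 day 70 replicate 3. *Cemip* stood at means of 2.83 and 1.12 CPM at day 0 and of 40.2 and 12.2 CPM at day 70 on standard and GW3965 diet. *Hmmr*, another hyaluronan receptor, rose by 0.67, the lymphatic receptor *Lyve1* fell by 1.18 and the link protein gene *Hapln1* fell by 2.52. Between diets at day 70, *Stab2*, a scavenger receptor for hyaluronan, was higher on GW3965 diet by 4.17 (adjusted p = 0.0259), from means of 0.150 and 3.11 CPM, and the call was lost without GW3965 replicate 1 or any standard replicate (3.18 to 4.85, adjusted p = 0.00324 to 0.182 over 6 fits).

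Of 18 genes for other CD44 ligands, partners and sheddases, 11 rose and none fell at day 70, beside 24.8% and 18.5% of all genes, with a median change of 0.72. The ligand gene *Spp1*, which encodes osteopontin, rose by 6.31 (SE 0.716, edgeR adjusted p = 2.16e-06), from means of 0.321 and 0.339 CPM at day 0 to 38.8 and 17.7 CPM on standard and GW3965 diet. Its change was 5.35 to 6.52 over the 14 fits that each left out 1 library. *Mif*, whose product signals through CD74 and CD44, rose by 1.08, while *Cd74* changed by 0.91 without passing (adjusted p = 0.0595). *Slc7a11*, the transporter gene whose product is associated with variant forms, rose by 3.68 (SE 0.336, adjusted p = 2.42e-07), from means of 4.57 and 3.71 CPM to 36.5 and 82.8 CPM. *Met*, the receptor for which v6 forms serve, changed by 0.40 without passing (adjusted p = 0.162), and its ligand gene *Hgf* rose by 0.69 (adjusted p = 0.0488), a call kept in 5 of 14 fits that each left out 1 library (0.43 to 0.84) and in 2 of 6 other alternatives. The libraries whose omission ended it were GW3965 day 0 replicates 22-1, 43-1 and 43-2, standard day 0 replicates 22-1, 22-2 and 43-2, GW3965 day 70 replicate 2 and standard day 70 replicates 1 and 2.

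Genes for proteases that cut CD44 from the cell surface rose together, with *Adam10* at 0.72, *Adam17* at 0.72 and *Mmp14* at 1.5 on the log2 scale. *Mmp9*, which encodes a protease known to dock on CD44, rose by 3.61 and *Mmp7* by 10.52 (SE 0.915, edgeR adjusted p = 1.64e-07), the latter from means of 0.189 and 0.144 CPM at day 0 to 465 and 116 CPM on standard and GW3965 diet at day 70. *Egfr* rose by 0.87 and *Msn*, one of the linkers between CD44 and the actin cortex, by 0.52, while the linker genes *Ezr* (-0.19) and *Rdx* (-0.14), the inhibitor gene *Nf2* (-0.24), *Ank3* (-0.52) and *Erbb2* (-0.22) did not pass. At day 22, 7 of the 18 rose and none fell, beside 13.3% and 6.64% of all genes.

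*Cd44* is a Wnt target gene, and of 12 Wnt target and crypt base genes 10 rose and none fell at day 70, beside 24.8% and 18.5% of all genes, with a median change of 1.42. The stem cell genes *Lgr5* and *Ascl2* rose by 2.33 (SE 0.511, edgeR adjusted p = 0.00110) and 1.14, and the feedback inhibitor genes *Axin2*, *Nkd1*, *Rnf43* and *Notum* by 1.54, 1.51, 1.00 and 8.85. *Myc* rose by 1.33, *Lef1* by 2.03, *Sp5* by 7.87 and *Ephb2* by 0.57, and *Sox9* (0.58) and *Znrf3* (0.61) did not pass. Without GW3965 day 70 replicate 3, *Ascl2* (0.34), *Rnf43* (0.69) and *Ephb2* (0.33) did not pass, and *Ephb2*, called in 6 of 14 such fits, was also lost without GW3965 day 70 replicate 2, standard day 70 replicate 1 (0.36), or any of 5 day 0 libraries. The calls of *Ascl2* and *Ephb2* were also lost with a replicate block, and that of *Ephb2* without the filter or with DESeq2 size factors. At day 22, 2 of the 12 rose, beside 13.3% of all genes, and the median was -0.51. None of the 12 passed between diets at day 70, with a median difference of -0.84.

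Genes whose levels followed *Cd44* closely over the 26 libraries, by Pearson correlation of log2 CPM among 17062 other genes, included *Serpinb11* (0.962), *Adam28*, *Cers3*, *Col7a1*, *Mab21l3*, *Zfp185*, *Ltf* and *Prss27* (0.945). *Col7a1* encodes the collagen of the anchoring fibrils of stratified epithelium and *Ltf* the neutrophil and epithelial protein lactoferrin. For the variant class they included *Serpinb11* (0.959), *Adam28*, *Ltf*, *Cers3*, *Mab21l3* and *Col7a1* (0.942), each also listed for the gene. For the standard transcript the 8 closest were *Smap2* (0.910), *Zfpm1*, *Bicdl1*, *Ttyh3*, *Piezo1*, *Sept9*, *Pqbp1* and *Stk24* (0.884), none of them listed for the gene. For the variant class without the long 3′ end they were *Top3a* (0.910), *Spats2*, *Shmt2*, *Slc7a5*, *Asns*, *Knop1*, *Tubgcp2* and *Tspan14* (0.877), again other genes, of which *Shmt2*, *Slc7a5* and *Asns* act in amino acid metabolism and transport. The libraries of a group share their day, diet and, at days 0, 22 and 43, cage, so these values describe the set of samples only.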

How the data were processed

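The deposited tables, made by the authors with kallisto on GRCm38 (versions not given in the sources used here), hold estimated counts and TPM per transcript for 26 libraries of distal colon. Of 119414 transcripts, 116728 matched a gene of GENCODE vM21 (GRCm38), from which coordinates and sequences were also taken, and the unmatched ones held 0.615 to 0.999% of the counts. Depth was 18195345 to 41522204 counts per library, with a median of 20424701. Estimated counts were summed per gene, rounded, filtered with filterByExpr (17063 genes, 50783 transcripts, 11385 genes for usage), scaled by TMM and fitted with edgeR quasi-likelihood models of the 8 groups and the share of 88 ribosomal protein genes in each library as an additive term. A result passed at an adjusted p (BH) under 0.05.

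*Cd44* transcripts with at least 1 exon of the variable region formed the variant class, and those spanning it without one the standard class. Class sums were tested in the fit of all genes, and usage with diffSpliceDGE. Shares of TPM were compared by two-sided exact permutation within diets, with BH over 15 contrasts. The members and the gene lists were chosen with earlier results of these data known. A gene of a list is named where its change, its known tie to CD44 or a lost call is described, and each list is given with all its calls. The deposited tables hold no repeated kallisto estimates, so the uncertainty of the assignment of reads to transcripts was not carried into any test.

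Alternatives were DESeq2 (Wald test), DESeq2 size factors in edgeR, no filter, no ribosomal term, a block for the replicate number, each library left out in turn, other definitions of the share and, added after seeing the data, omission of the 3 libraries with an RNA integrity number under 8 and of the 2 transcripts with the long 3′ end. The scripts were tested on simulated data. Tools were R 4.3.3, edgeR 4.0.16, limma 3.58.1, DESeq2 1.42.0, Python 3.11.15, numpy 2.4.6, pandas 2.3.3 and matplotlib 3.10.9.

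Of the genes most correlated with *Cd44* and with its variant class, some are not reported here, so those lists are incomplete.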

Additional observations from a re-analysis of the deposited data

Results flagged for a closer look

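One value stood far from its group. The summed level of the 10 epithelial markers was 16906.1 CPM in GW3965 day 0 replicate 22-1 and 11366.5, 12110 and 12120.7 CPM in the other 3 libraries of that group. Its gap to the nearest library was 0.864 of the range of the group, above the critical value of 0.829 for 4 samples. In all, 54 groups of 4 were checked for 27 quantities, and chance flags about 1 in 20 groups.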

How the results depend on the processing

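The rise of the *Cd44* gene at days 22 and 70 and that of the variant class passed under every alternative, with 1.08 to 1.37 and 2.30 to 2.71 on the log2 scale for the gene over the 14 fits that each left out 1 library. The values below are among those that changed side or sign, and the cause was not tested.

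Without the ribosomal term (edgeR, log2 change, adjusted p), day 43 against day 0 gave 2.12 (7.57e-08) for the gene, 2.56 (3.97e-08) for the variant class and -0.48 (0.186) for the standard class. Day 43 against day 22 gave 0.89 (0.00582), 1.1 (0.00314) and -0.98 (0.0278), and -0.59 (0.555) for the variant class without the long 3′ end. Day 70 against day 43 gave 1.71 (0.000221) for the standard class and 4.88 (1.69e-05) for the variant class without the long 3′ end. The usage test gave adjusted p of 1.80e-07 (classes) and 0.00108 (transcripts) for day 43 against day 0, 0.000211 (classes) for day 43 against day 22, 0.00414 (classes), 2.65e-11 (transcripts) and 0.00150 (classes without the long 3′ end) for day 70 against day 43, and 0.0160 (classes) and 0.0212 (transcripts) between diets at day 43. *Rbfox2* at day 70 changed sign to 0.0480 (0.863).

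With the DESeq2 Wald test, day 43 against day 0 gave 2.04 (0.0200) for the gene and 2.27 (0.0194) for the variant class, and day 70 against day 0 on standard diet gave 0.99 (0.0397) for the standard class. On GW3965 diet that class gave 1.13 (0.0542) with DESeq2 size factors and 1.12 (0.0797) without the filter.

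With a replicate block the standard class gave 1.01 (0.116) on GW3965 diet at day 70 and -0.12 (0.983) from day 43 to day 70. Usage at day 70 on GW3965 diet then gave adjusted p of 0.101 (classes without the long 3′ end) and 0.141 (transcripts). Over 13 pairs with the same replicate number the mean correlation was -0.0661 (lowest -0.37, highest 0.201), so the numbers do not pair the samples.

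Without the 3 libraries of RNA integrity number under 8, the diet difference at day 43 was 0.0356 for the gene and 0.0072 for the variant class. The standard class at day 70 on standard diet gave 1.00 (0.0107). The planned share at day 43 was higher than at day 0 by 30.7 points, with 1 standard library of day 43 left.

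Against the planned share, Cd44v6–10 and Cd44s alone gave -1.07 (0.580) and 3.53 (0.600) points between diets at days 0 and 43, 1.47 (0.580) and 1.84 (0.580) at days 22 and 43 against day 0, and 29.3 (0.0375) from day 43 to day 70 (exact permutation). Without the 2 long transcripts these were -0.661 (0.857), 11.4 (0.214), 0.884 (0.857), 5.16 (0.196) and 35.4 (0.075).

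With each library left out in turn (lowest to highest), the diet difference at day 70 was -0.10 to 0.71 for the gene and -0.0603 to 0.82 for the variant class, and the variant class at day 0 gave -0.0506 to 0.21. The difference between diets of the day 70 change was -0.0354 to 0.78 for the gene, -0.18 to 0.70 for the variant class, -0.0381 to 0.39 for the standard class and -1.36 to 0.29 for the variant class without the long 3′ end, which between diets at day 22 gave -1.28 to 0.70. The standard class gave 0.61 to 0.96 at day 22, -0.12 to 0.49 from day 22 to day 43, -0.29 to 0.56 from day 43 to day 70 and 0.97 to 1.35 at day 70 on GW3965 diet. Usage of the classes at day 70 on GW3965 diet gave an adjusted p of 0.0390 without standard day 43 replicate 1, the only library left out for usage. *Ckm* gave -0.91 to 2.84 and *Rbfox2* -0.19 to 0.0712 at day 70.

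For the planned share these ranges were 12.4 to 18 points at day 22 (7 of 14 fits passed, adjusted p up to 0.075, exact permutation), 19.7 to 26.4 at day 70 (7 of 14, up to 0.0571), 31.8 to 36.2 at day 43 (14 of 14, up to 0.0429), 15.8 to 21.3 from day 22 to day 43, -14.1 to -7.38 from day 43 to day 70 and -7.29 to 6.04 between diets at day 70. Without the long 3′ end they were 37.3 to 45.2 at day 70, -0.982 to 2.00 at day 22, and -1.51 to 1.06 and -1.96 to 3.99 between diets at days 0 and 22. With fewer libraries the smallest possible p is larger, and 6 of the 14 fits of the day 70 share without the long 3′ end then had an adjusted p of 0.0571 (exact permutation).

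Of the list genes at day 70 against day 0, the call was lost with a replicate block for *Ascl2* (1.00, 0.0705), *Cdx2* (1.32, 0.0577), *Ephb2* (0.45, 0.131), *Hgf* (0.72, 0.0571), *Krt18* (0.64, 0.0753) and *Myh4* (11.69, 0.139), without the filter for *Ckm* (2.47, 0.0787), *Ephb2* (0.53, 0.0747), *Hgf* (0.66, 0.0882) and *Myh4* (10.72, 0.0581), and with DESeq2 size factors for *Ephb2* (0.54, 0.0545) and *Hgf* (0.67, 0.0605). Without the 3 libraries of RNA integrity number under 8, *Hgf* (0.57, 0.121) and *Myh4* (10.67, 0.0566) lost it, and *Khdrbs1* (0.41, 0.00779) and *Srsf3* (0.35, 0.0395) passed. Between diets at day 70 it was lost without the filter for *Abcg5* (1.74, 0.0606), *Abcg8* (1.73, 0.0574), *Cd4* (2.80, 0.0775), *Cd79a* (4.02, 0.0734), *Itgax* (1.35, 0.0686) and *Ptprc* (2.03, 0.0574), with a replicate block for *Abcg5* (1.74, 0.0612), *Abcg8* (1.76, 0.0565), *Cd4* (2.85, 0.0555) and *Cd79a* (3.79, 0.0555), and without the libraries of low RNA integrity for *Abcg5* (1.78, 0.0531) and *Itgax* (1.29, 0.0585).

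Genes passing between diets at day 70 numbered 315, and 1162 with DESeq2, 107 without the filter, 530 without the ribosomal term, 195 with a replicate block and 6 to 1456 with 1 library left out. At day 43 against day 0 they numbered 102, and 471, 23 and 11009 with the first 3 of these, 0 without the libraries of RNA integrity number under 8 (1416 at an unadjusted p under 0.05) and 0 to 404 with 1 library left out. At day 22 they numbered 3405, and 5361 without the ribosomal term.

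The groups hold 3 or 4 libraries, so no exact test within a diet could reach 0.05 for days 22 to 70. Shares before day 70 rest on as few as 41.0 estimated counts for Cd44v6–10 and Cd44s, where a count of 0 allows for a share of up to 7.31% (counting error only). Reads of the long 3′ end could be assigned only to Cd44v1–10 and Cd44v5–10Δ7, and their part in the shares was not tested. Short reads cannot show which variant exons lie on the same molecule. Protein was not measured, and bulk tissue does not show which cells carried which isoform.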
